A study of Mus musculus with 15 samples.

Results

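The genes of the machinery that edits apolipoprotein B mRNA, Apobec1, A1cf and Rbm47, were followed in jejunal epithelial cells of CC027/GeniUnc mice, an inbred strain of the Collaborative Cross. They are 3 of the 14968 genes that passed the filter on low counts, out of 28797 with any count, and all 3 passed that filter. The 3 were chosen by name, as the editing enzyme and its cofactors, with earlier results of these data in view, so their levels and fold changes are given as a description, with no p-value. Whether a member passed the threshold used for all genes is stated beside the share of all genes that did, also as a description and not as evidence for a difference.

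The data are 15 poly(A) RNA-seq libraries in 5 groups of 3. The first group was given PBS by gavage through the whole sensitization schedule and was not challenged (PBS mice). The second was sensitized by weekly gavage of 2 mg peanut extract for 3 weeks and 5 mg in week 4, and was not challenged (sensitized mice). The other 3 groups were sensitized in the same way, then challenged by gavage of 12 mg peanut extract, and collected at 30, 60 or 120 min (30, 60 and 120 min mice). All animals were of the 1 strain, and age and sex are not given in the labels used here. The cells were shaken off a jejunal segment of 4 cm, taken from 6 cm below the pylorus, in a buffer with EDTA and DTT. The design analysed here has no PBS mice challenged with peanut and no mice given a sham challenge, so the peanut and the gavage itself cannot be told apart.

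The libraries held 15661513 to 22691349 estimated counts, of which mitochondrial genes took 13.8% to 33.2%. The isolates carried the enterocyte markers they should: 8 of 8 were tested, and their summed level was 7991 to 14014 CPM, estimated counts scaled to the size of the library, per library. Leukocyte markers were also present, with 9 of 9 tested and sums of 24.2 to 222 CPM, as were low levels of stromal and endothelial markers, at 1.81 to 8.81 CPM in 14 libraries and 141 CPM in 30 min replicate 1. Among the stromal and endothelial markers Col3a1, Col1a2, Dcn and Cdh5 were at 0 in some library and Col1a1 was not tested.

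APOBEC1 is a cytidine deaminase that changes a single cytidine to uridine in apolipoprotein B mRNA, which turns a glutamine codon into a stop codon. The edited mRNA encodes apoB-48, the short form on which the small intestine builds chylomicrons, and the unedited mRNA encodes apoB-100. A1CF and RBM47 are RNA-binding proteins that bring the deaminase to its target, where a short mooring sequence lies downstream of the edited cytidine.

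The target site is shown because it is the substrate on which the 3 members act. It lies in exon 26 of Apob (ENSMUSG00000020609.14) in the coding sequence of transcript Apob-202, at chr12:8008037-8008076 on the plus strand of GRCm38 (mm10). The edited cytidine is base 8008054, which is base 6535 of the coding sequence and the first base of codon 2179. The sequence was read from the GENCODE transcripts of that build. Capitals mark the edited codon CAA and the 11 bases of the mooring sequence.
Apob editing site: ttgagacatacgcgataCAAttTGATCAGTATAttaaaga

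The GENCODE transcripts of 55341 genes were searched on the sense strand. The bases CAA, a spacer NN and TGATCAG, the first bases of the mooring sequence, were found in a row in 167 genes, or 0.302%. Whether CAA is a codon in the reading frame was checked for Apob only. The full mooring sequence of 11 bases was found in 21 genes (0.0379%). CAA, the spacer of Apob and the full mooring sequence were found in a row in 1 gene, Apob. Of 23 mRNAs reported as APOBEC1 targets in mice, 2 held the exact mooring sequence of Apob, and these were Apob itself and Rnf128. A match is a description of the letters, and editing was not measured: tables of transcript abundance do not hold the edited base.

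The level of Apobec1, the deaminase, was higher in the 120 min libraries than in any other library. The gene (ENSMUSG00000040613.14) lies at chr6:122577792-122602444 on the minus strand. At 120 min its 3 libraries had 87.2, 81.5 and 90.2 CPM, against 49.0, 36.8 and 43.9 CPM in sensitized mice. The other groups lay where the sensitized mice did. The 3 PBS libraries had 33.3, 44.9 and 34.8 CPM, the 30 min libraries 33.3, 31.1 and 46.1 CPM, and the 60 min libraries 37.3, 39.0 and 46.0 CPM. All 3 libraries of 120 min mice were above all 12 others, and those 12 overlapped between every pair of neighbouring groups. In order of their means the groups were 30 min at 36.8 ± 8.12 CPM, PBS at 37.7 ± 6.32, 60 min at 40.8 ± 4.62, sensitized at 43.3 ± 6.11 and 120 min at 86.3 ± 4.39 (SD, n = 3 each). Apobec1 was thus counted at 1529 to 2001 estimated reads per library at 120 min and at no fewer than 493 in any library.

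**Figure D1:**
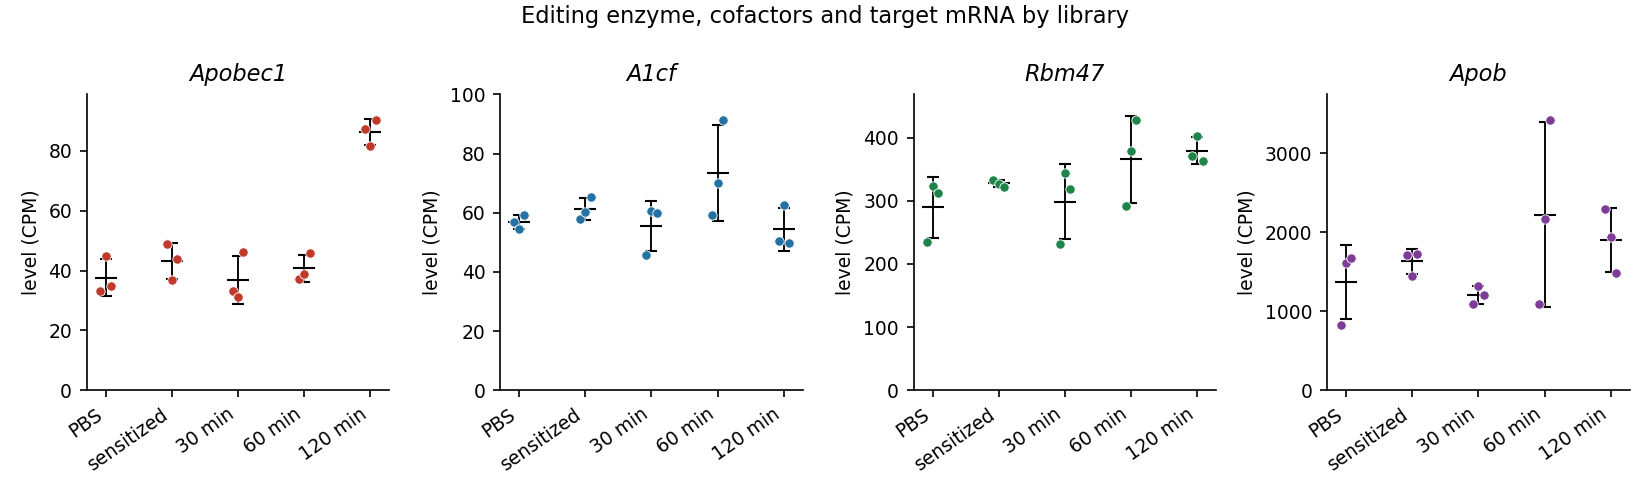
Level of Apobec1, A1cf and Rbm47 in each library, in CPM scaled by trimmed mean of M-values (TMM), with the target mRNA Apob beside them, for PBS, sensitized, 30, 60 and 120 min mice. Points are libraries and bars are the mean and SD of 3 libraries; the 120 min libraries of Apobec1, at 81.5 to 90.2 CPM, lie above all others of that gene, while those of A1cf lie among the rest.

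The fitted log2 fold change of Apobec1 at 120 min was 1.0 ± 0.16 (SE) against sensitized mice, 1.23 ± 0.16 against 30 min mice and 1.08 ± 0.16 against 60 min mice. In each of these 3 comparisons Apobec1 was the 1 member of 3 that passed an adjusted p of 0.05 in edgeR's quasi-likelihood test with Benjamini-Hochberg adjustment over all genes. The background share of genes that passed was 1.26% at 120 min against sensitized mice, 1.01% against 30 min mice and 1.12% against 60 min mice, and nothing is read from the members' count, since these data were known when they were chosen. The 120 min libraries are common to all 3 comparisons. The call against sensitized mice was lost when sensitized replicate 2 or 3, or 120 min replicate 1 or 3, was left out, with log2 fold changes of 0.89, 1.01, 0.97 and 0.96. The call against 60 min mice was lost without 60 min replicate 2 or 3 or 120 min replicate 1 or 3, at 1.02, 1.16, 1.04 and 1.03, and that against 30 min mice was kept in all 6 such fits.

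Before 120 min no member passed. Apobec1 differed by a log2 fold change of 0.20 ± 0.16 in sensitized against PBS mice, by -0.23 ± 0.16 at 30 min against sensitized mice and by -0.09 ± 0.16 at 60 min against sensitized mice, with overlapping libraries each time. The last of these was 0.03 without sensitized replicate 1. In the same comparisons 0%, 0% and 0.00668% of all genes passed in edgeR. In sensitized against PBS mice, 212 genes had an unadjusted p under 0.05, 6 passed with DESeq2 and 0 with limma-voom. At 30 min against sensitized mice the numbers were 755, 6 and 0. More genes did so at 60 min against sensitized mice, where 1883 (12.6%) had an unadjusted p under 0.05 and 189 passed with DESeq2.

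A1cf, APOBEC1 complementation factor, was the first cofactor found for the deaminase. The gene (ENSMUSG00000052595.8) lies at chr19:31868764-31948995 on the plus strand. At 120 min it had 50.5, 62.7 and 49.9 CPM, against 57.9, 60.3 and 65.2 CPM in sensitized mice, and the groups overlapped. The PBS libraries had 57.0, 54.5 and 59.3 CPM and the 30 min libraries 45.7, 60.7 and 59.8 CPM. The 60 min libraries were the most spread, at 59.2, 69.9 and 91.2 CPM. In order of their means the groups were 120 min (54.4 ± 7.19 CPM), 30 min (55.4 ± 8.43), PBS (56.9 ± 2.43), sensitized (61.1 ± 3.71) and 60 min (73.4 ± 16.3), and every pair of neighbours overlapped.

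The highest A1cf value, 91.2 CPM, came from 60 min replicate 3, in which mitochondrial genes took 33.2% of the counts, the largest share of any library. In TPM, the transcript abundance per length, which is not rescaled between libraries for composition, the same library had 14.9 TPM of A1cf, below the 21.5 and 21.0 TPM of the other 60 min libraries. Apobec1 and Rbm47 were likewise highest in CPM and lowest in TPM in replicate 3 among the 60 min libraries. Apobec1 had 46.0 CPM and 13.9 TPM there, and Rbm47 427 CPM and 78.5 TPM. The part of the mitochondrial share in these differences was not tested. The log2 fold changes of A1cf were -0.17 ± 0.15 at 120 min against sensitized mice, 0.26 ± 0.15 at 60 min, -0.14 ± 0.15 at 30 min, and 0.10 ± 0.15 in sensitized against PBS mice. At 120 min it differed by -0.03 ± 0.15 against 30 min mice and by -0.43 ± 0.15 against 60 min mice. None of these 6 was called by edgeR, DESeq2 or limma-voom; without 60 min replicate 1 the last became -0.59 and passed the threshold in edgeR.

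Rbm47, an RNA-binding protein that also serves as a cofactor of APOBEC1 in mice, had the highest level of the 3. The gene (ENSMUSG00000070780.11) lies at chr5:66016549-66173118 on the minus strand. At 120 min it had 371, 403 and 363 CPM, against 333, 327 and 322 CPM in sensitized mice, so that these groups did not overlap. Their means were 379 ± 21.5 and 327 ± 5.79 CPM (SD, n = 3 each), and the log2 fold change was 0.21 ± 0.17. The PBS libraries had 234, 323 and 312 CPM, the 30 min libraries 231, 344 and 319 CPM, and the 60 min libraries 291, 379 and 427 CPM. In TPM the same 60 min libraries had 103, 118 and 78.5. Ordered by mean, the groups were PBS (290 ± 49.0 CPM), 30 min (298 ± 59.7), sensitized, 60 min (365 ± 68.9) and 120 min, and every pair of neighbours overlapped.

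Rbm47 at 120 min was also above every 30 min library, with a log2 fold change of 0.35 ± 0.17, and it overlapped 60 min mice, at 0.05 ± 0.17. Against sensitized mice it differed by 0.16 ± 0.17 at 60 min and -0.13 ± 0.17 at 30 min, and sensitized against PBS mice differed by 0.18 ± 0.17. None of the 6 comparisons was called by edgeR, DESeq2 or limma-voom. At 120 min against sensitized mice, 2 of the 3 members had all their libraries above all sensitized libraries, a pattern shown by 13.3% of all genes, and 12.1% of all genes showed it against 30 min mice. Against 60 min mice Apobec1 alone of the 3 did so, where 10.2% of genes did.

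Compared per length, in TPM, the order of the genes was Rbm47 above Apobec1 and A1cf in every group. Rbm47 averaged 90.0, 95.3, 89.3, 99.9 and 129 TPM in PBS, sensitized, 30, 60 and 120 min mice. Apobec1 averaged 20.1, 23.4, 20.3, 20.0 and 52.0 TPM in the same groups, and A1cf 16.5, 18.5, 16.4, 19.1 and 18.2 TPM. The enzyme and A1cf were therefore near the same level per length in all groups except the 120 min mice.

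The ratio of the enzyme to its cofactors within each library shows this without a scaling factor. Apobec1 per A1cf was 2.97, 2.49 and 3.18 at 120 min, against 1.65, 0.951 and 1.29 in sensitized mice, with no overlap. Across PBS, sensitized, 30, 60 and 120 min mice the ratio averaged 1.22 ± 0.25, 1.30 ± 0.351, 1.26 ± 0.335, 1.03 ± 0.0953 and 2.88 ± 0.355 (SD, n = 3 each). Apobec1 per Rbm47 was 0.404 ± 0.0371 at 120 min, against 0.251 ± 0.0464 in sensitized mice, and it was 0.227 ± 0.0193 in PBS, 0.232 ± 0.0634 in 30 min and 0.199 ± 0.0299 in 60 min mice. The ratio of the cofactors to each other was also higher in the 120 min libraries. Rbm47 per A1cf was 7.20, 6.86 and 7.31 at 120 min, above all 12 other libraries, of which the highest was 6.55. In sensitized mice this ratio averaged 5.15 ± 0.732, against 5.39 ± 1.21 in PBS mice. How often the ratios of other gene pairs set the 120 min libraries apart was not computed.

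**Figure D2:**
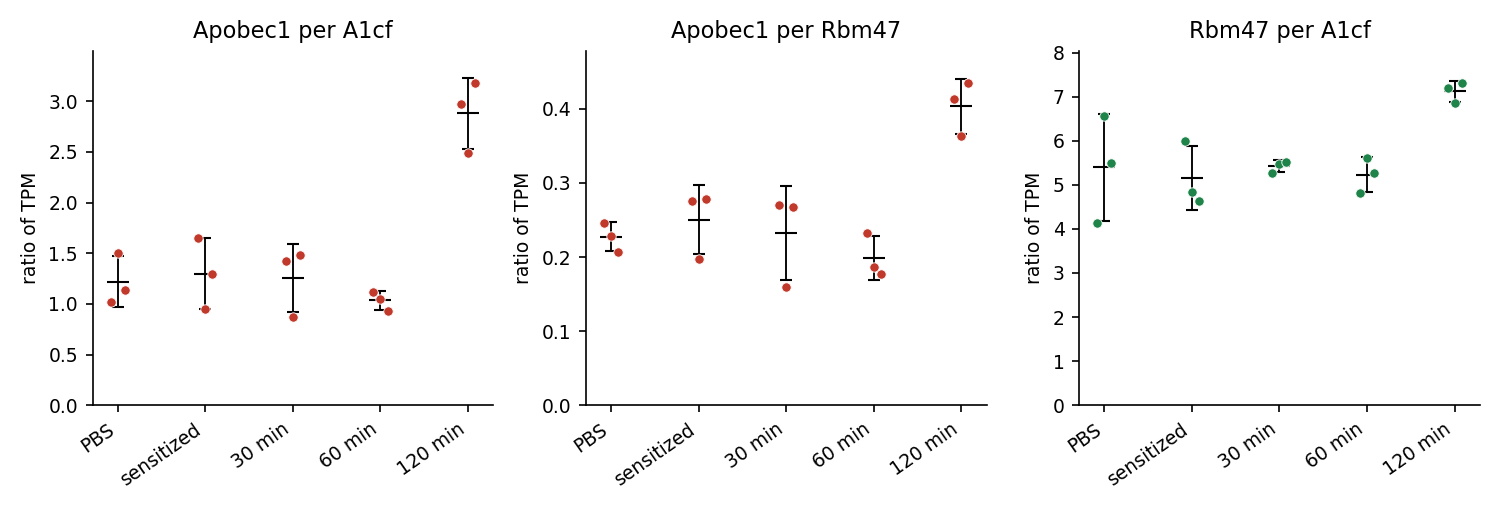
Ratios of TPM between members in each library, for Apobec1 per A1cf, Apobec1 per Rbm47 and Rbm47 per A1cf, by group from PBS to 120 min. Points are libraries and bars the mean and SD of 3; each ratio is higher in the 120 min libraries, where Apobec1 per A1cf was 2.49 to 3.18.

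The annotated transcripts of Apobec1 differ at their 5′ ends, and their estimates compared differently with sensitized mice at 120 min. GENCODE lists 9 transcripts of the gene, of which 4 had 100 or more estimated counts over the 15 libraries. Apobec1-203 begins at a downstream start site, base 122600127 of chromosome 6, and has 7 exons and 2072 bases. Apobec1-201 begins upstream at base 122602371, 2244 bases away, and has 8 exons and 2127 bases. They hold the same 687 coding bases, so the difference lies in the untranslated region, where they also carry a long and a short form of a shared noncoding exon that differ by 56 bases. Start site and exon form are carried by the same 2 main models and cannot be told apart in these values.

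Apobec1-203 had 74.8, 70.5 and 71.9 CPM at 120 min, against 36.1, 25.5 and 23.2 CPM in sensitized mice. The ratio of these means was 2.56, with no overlap. Among the 22705 transcripts with a mean of at least 1 TPM, 11.2% were higher at 120 min with no overlap, and 4.92% had a mean at least 2 times that of sensitized mice. The mean of Apobec1-203 was 28.2 ± 8.23 CPM in PBS, 27.1 ± 9.39 in 30 min and 31.0 ± 0.733 in 60 min mice, close to the 28.3 ± 6.85 of sensitized mice.

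Apobec1-201 had 8.47, 8.20 and 14.9 CPM at 120 min, against 9.22, 9.66 and 15.5 CPM in sensitized mice, and these libraries overlapped. The ratio of their means was 0.919. In PBS, 30 and 60 min mice it averaged 7.62 ± 5.46, 7.63 ± 3.17 and 8.26 ± 4.87 CPM. With all transcripts of the upstream start summed, the 120 min mice had 12.3, 11.1 and 18.2 CPM and the sensitized mice 12.9, 11.4 and 20.7 CPM, a ratio of means of 0.925. Against 30 min, 60 min and PBS mice, which had 9.71 ± 2.12, 9.76 ± 4.58 and 9.47 ± 4.79 CPM of the upstream start, the ratios were 1.43, 1.42 and 1.47, with overlapping libraries. Apobec1-208, a short upstream model of 666 bases, had 1.48, 2.56 and 1.25 CPM at 120 min, against 2.71, 1.2 and 2.00 CPM in sensitized mice, which overlapped. It was higher at 120 min than in 30 min mice (0.713 ± 0.0613 CPM, ratio 2.47) and 60 min mice (0.760 ± 0.32 CPM, ratio 2.32), with no overlap, as were 11.8% and 10.8% of the transcripts with a mean of at least 1 TPM. Against sensitized mice, the higher level of the gene at 120 min lay in the estimates for transcripts of the downstream start.

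Apobec1-203 made up 79.4%, 77.8% and 77.0% of the gene's TPM at 120 min, against 63.9%, 63.4% and 47.2% in sensitized mice, with no overlap. The share was less distinct from the other groups, at 55.7%, 74.0% and 75.2% in PBS, 56.9%, 66.9% and 73.9% in 30 min and 79.2%, 70.9% and 64.7% in 60 min mice. The levels of the transcript separated 120 min mice from all other libraries, and its shares did not. The estimates come without an uncertainty for the division of reads between overlapping models, so the spread over libraries is the only error given.

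**Figure D3:**
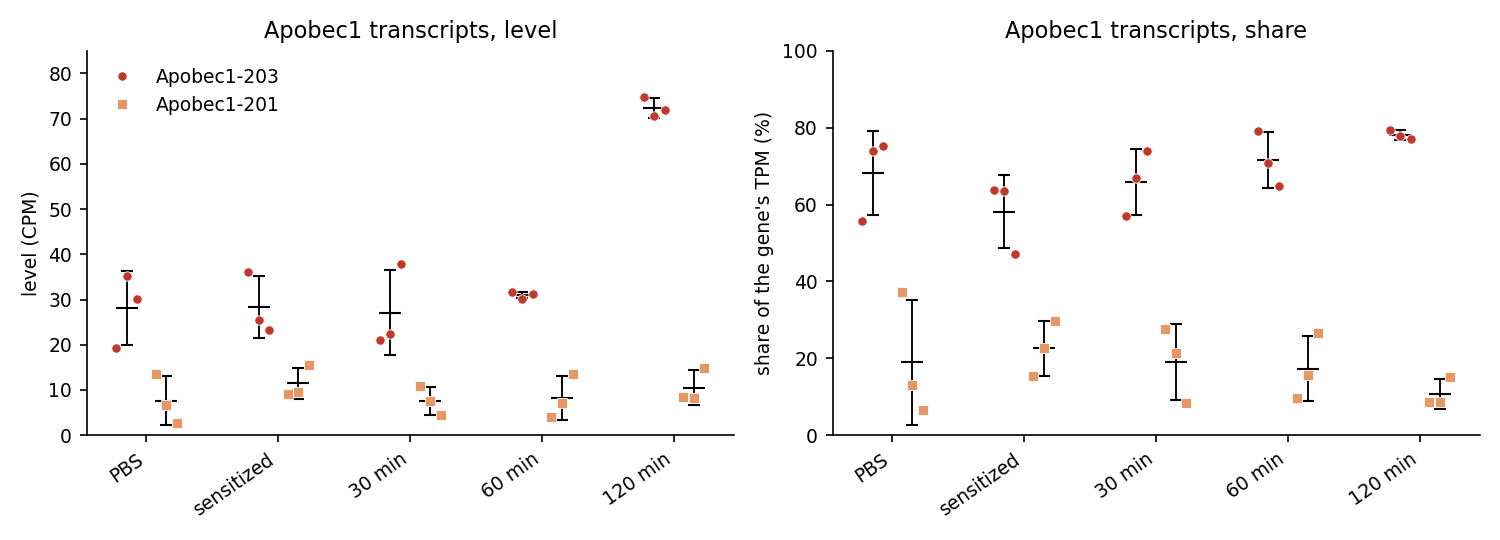
Level of Apobec1-203, from the downstream start, and Apobec1-201, from the upstream start, in each library, as CPM (left) and as the percent of the gene's TPM (right), by group from PBS to 120 min. Points are libraries and bars the mean and SD of 3; Apobec1-203 lies at 70.5 to 74.8 CPM at 120 min, and Apobec1-201 overlaps between 120 min and sensitized mice.

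A1cf has 5 annotated transcripts, of which A1cf-201 and A1cf-202 carried most of the estimated level. They differ in the coding sequence by 24 bases, or 8 codons, that A1cf-201 includes in exon 9 at chr19:31934628-31934651 of GRCm38, plus strand. The 2 models also end at different bases of chromosome 19, 31948995 for A1cf-201 and 31948573 for A1cf-202. Coding form and 3′ end are carried by the same 2 models and cannot be told apart in these values. The junctions are shown because the exon 9 letters are what separates the 2 coding forms, and capitals mark the bases that A1cf-202 lacks.
A1cf-201 junction: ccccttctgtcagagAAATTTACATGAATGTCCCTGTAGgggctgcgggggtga
A1cf-202 junction: ccccttctgtcagaggggctgcgggggtga

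The longer form was the main one in every group. A1cf-201 made up 62.7%, 71.1% and 68.3% of the gene's TPM at 120 min, against 59.8%, 47.3% and 62.8% in sensitized mice, which overlapped. Its level was 39.5 ± 6.34 CPM at 120 min, against 38.4 ± 3.67 CPM in sensitized mice (SD, n = 3 each). In PBS, 30 and 60 min mice it averaged 37.6 ± 2.47, 39.3 ± 5.76 and 50.2 ± 15.1 CPM.

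The model of the shorter form, A1cf-202, had a lower estimate at 120 min than in sensitized mice. It had 11.6, 14.9 and 13.2 CPM, against 20.4, 22.0 and 22.3 CPM in sensitized mice, with a ratio of means of 0.613 and no overlap, a pattern seen in 8.56% of the transcripts with a mean of at least 1 TPM. Its share was 22.8%, 25.2% and 27.8% at 120 min, against 37.1%, 32.4% and 36.5% in sensitized mice. In PBS, 30 and 60 min mice the level averaged 18.5 ± 4.64, 14.7 ± 4.39 and 22.6 ± 3.20 CPM, so the 30 min mice were also near the level of the 120 min mice.

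Rbm47 has 14 annotated transcripts. Rbm47-202, of 4643 bases with 1770 coding bases, made up 54.9% ± 1.79 of the gene's TPM at 120 min, against 57.3% ± 5.82 in sensitized mice (SD, n = 3 each). Rbm47-207, an incomplete model of 703 bases, made up 38.6% ± 1.93 at 120 min, against 36.3% ± 5.14. In CPM, which is not divided by length, it had 28.9 ± 2.64 at 120 min, where Rbm47-202 had 326 ± 15.0. This short model took 50.1 ± 6.43 of the gene's 129 TPM at 120 min, and the TPM levels and ratios of Rbm47 include it. The make-up was alike across groups, with Rbm47-202 at 55.0% in PBS, 55.7% in 30 min and 55.4% in 60 min mice. Rbm47-201, which has 1563 coding bases and lacks a coding exon, had 3.38% ± 1.02 at 120 min, against 2.99% ± 0.995. The level of Rbm47-202 was 319, 343 and 315 CPM at 120 min, above the 290, 279 and 288 CPM of sensitized mice by a ratio of means of 1.14.

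**Figure D4:**
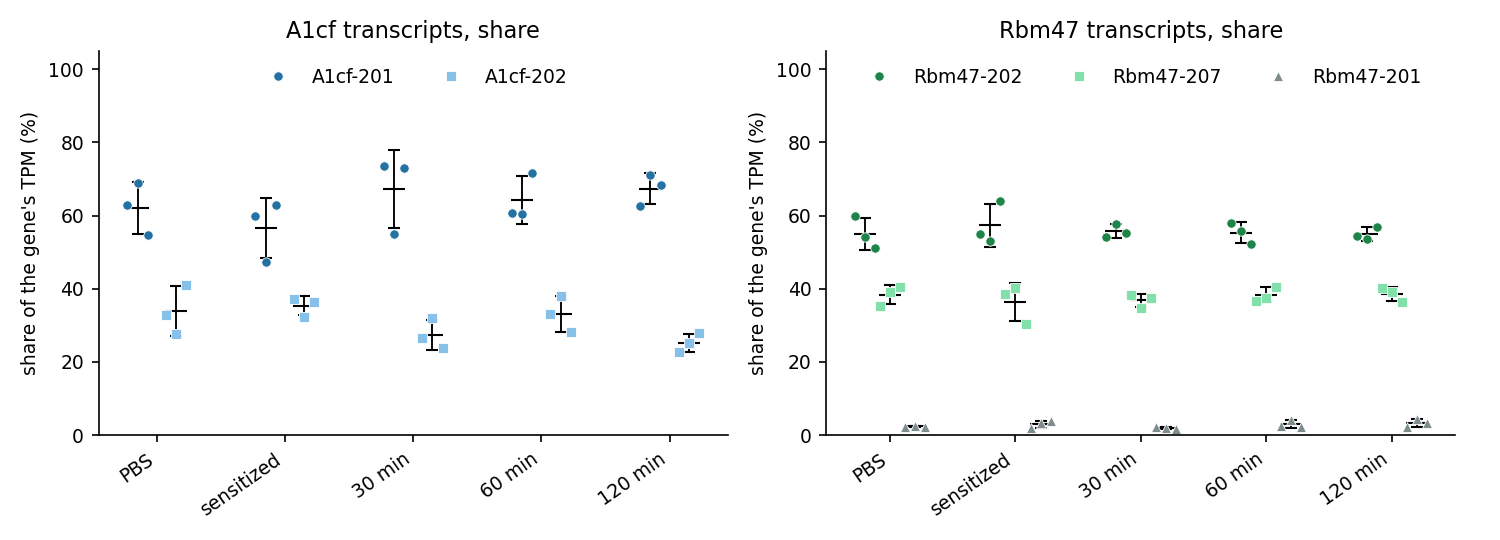
Share of each cofactor gene's TPM, in percent, in its main transcripts in each library, by group from PBS to 120 min. Points are libraries and bars the mean and SD of 3; A1cf-202 lies at 22.8% to 27.8% at 120 min, below sensitized mice, and the shares of the Rbm47 transcripts overlap between 120 min and sensitized mice.

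Genes that overlap the members held few counts. A pseudogene within A1cf, Gm19241, held 26 estimated counts over the 15 libraries, and Gm26725, antisense to Rbm47, held 56. Gm43775 and Gm43323, within Rbm47 on its own strand, held 91 and 34. The labels do not say whether the counting used strand.

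The mRNA that the machinery acts on did not pass the threshold in any of the 6 comparisons. Apob had 2293, 1944 and 1479 CPM at 120 min, against 1716, 1451 and 1730 CPM in sensitized mice, with a log2 fold change of 0.22 ± 0.34 and an adjusted p of 0.785 in edgeR's quasi-likelihood test. Among the 60 min mice it ran from 1086 through 2172 to 3416 CPM, and the log2 fold change against sensitized mice was 0.45 ± 0.34 (adjusted p = 0.611). In TPM the same 60 min libraries had 127, 191 and 183. The 30 min libraries, at 1096, 1320 and 1203 CPM, were below all sensitized libraries and below all 120 min libraries, but neither difference was called: -0.44 ± 0.34 at 30 min against sensitized mice (adjusted p = 0.981) and 0.66 ± 0.34 at 120 against 30 min (adjusted p = 0.323). Of all genes, 7.84% were lower at 30 min than in sensitized mice with no overlap, and 12.1% were higher at 120 than at 30 min. Sensitized against PBS mice gave 0.26 ± 0.34 (adjusted p = 1), and -0.01 without PBS replicate 1. At 120 against 60 min the value was -0.22 ± 0.34 (adjusted p = 0.754), and 0.21 without 60 min replicate 3.

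Other proteins known to bind APOBEC1, A1CF or the Apob mRNA were tested as a list of 6, and in edgeR 0 rose and 0 fell in each of the 6 comparisons. At 120 min against sensitized mice 3 of the 6 had an unadjusted p under 0.05, beside 17.7% of all genes. With DESeq2, which passed 846 genes in all, 2 of the 6 passed (Celf2 and Hnrnpab), and 0 passed with limma-voom. The list's median log2 fold change was 0.18, beside -0.01 over all genes. Hnrnpab, an RNA-binding protein that binds APOBEC1, had 454 ± 81.2 CPM at 120 min, against 319 ± 31.1 CPM in sensitized mice, with a log2 fold change of 0.51 ± 0.13 (adjusted p = 0.0636, edgeR). Syncrip, an RNA-binding relative of A1CF, had 143 ± 28.7 against 111 ± 9.69 CPM (log2 0.36 ± 0.14, adjusted p = 0.204). Celf2, which binds A1CF and AU-rich RNA, had 2.61 ± 0.903 against 7.29 ± 4.16 CPM (log2 -1.47 ± 0.50, adjusted p = 0.147).

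Celf2 is also expressed in leukocytes, and the summed leukocyte markers were 24.2 to 67.0 CPM at 120 min, against 66.3 to 222 CPM in sensitized mice; their part in its value was not tested. In bulk cells, fewer cells of a type and less RNA per cell cannot be told apart. The other genes of the list did not pass: the log2 fold change was, for Bag4, a chaperone regulator, 0.21 ± 0.14 (adjusted p = 0.458), for Khsrp, an RNA decay factor, 0.15 ± 0.23 (adjusted p = 0.793) and for Dnajb11, a chaperone of the endoplasmic reticulum, 0.04 ± 0.12 (adjusted p = 0.913). At 60 min against sensitized mice Khsrp had a log2 fold change of 0.66 ± 0.23 (adjusted p = 0.3) and Bag4 0.49 ± 0.14 (adjusted p = 0.233).

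The relatives of Apobec1 were low. Apobec2 and Apobec3 were tested (Apobec4 was not), and neither passed in any of the 6 comparisons in edgeR, DESeq2 or limma-voom or had an unadjusted p under 0.05. Apobec3, which restricts retroviruses, had 6.57 ± 1.38 CPM at 120 min, against 7.46 ± 1.94 CPM in sensitized mice (log2 -0.18 ± 0.23, adjusted p = 0.741). Apobec2, mainly a muscle protein, had a log2 fold change of 1.09 ± 0.89 (adjusted p = 0.559). Of 3 adenosine deaminases that edit RNA, 2 were tested (Adarb1 was not), and 0 rose and 0 fell by edgeR, DESeq2 or limma-voom. Adar had 35.2 ± 1.34 CPM at 120 min, against 45.1 ± 6.50 CPM in sensitized mice, with a log2 fold change of -0.35 ± 0.14 (adjusted p = 0.208), which was the 1 value in the list with an unadjusted p under 0.05 in that comparison. Adarb2 was at -0.40 ± 0.93 (adjusted p = 0.868).

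**Figure D5:**
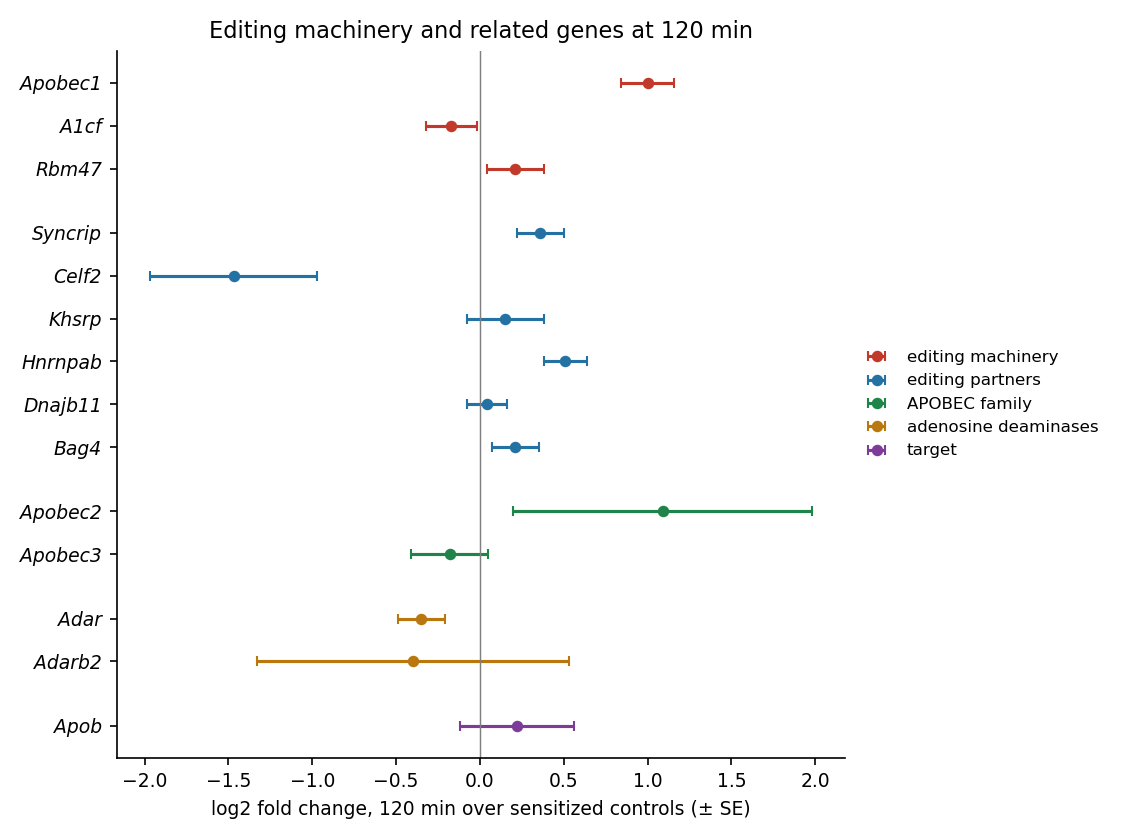
Log2 fold change at 120 min over sensitized mice, with its SE, for the 3 members, 3 related lists and Apob, from the fit over all genes. Apobec1, at 1.0, is the 1 gene shown that passed the threshold over all genes; Hnrnpab, at 0.51, had an adjusted p of 0.0636.

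The 23 mRNAs reported as APOBEC1 targets in mice, Apob among them, were split evenly at 120 min against sensitized mice, with 12 positive and 11 negative log2 fold changes and a median of 0.00, beside -0.01 over all genes. In edgeR 0 rose and 0 fell; 2 had an unadjusted p under 0.05, beside 17.7% of all genes, and 0 passed with DESeq2 or limma-voom. The 4 with the smallest p were Mtmr2, a phosphoinositide phosphatase, at 0.49 ± 0.18 (adjusted p = 0.174), Usp25, a deubiquitinase, at 0.23 ± 0.10 (adjusted p = 0.258), Casp6, a caspase, at -0.23 ± 0.12 (adjusted p = 0.32) and Kctd12 at -0.58 ± 0.30 (adjusted p = 0.346). At 60 min against sensitized mice the median was 0.03, and 3 had an unadjusted p under 0.05, beside 12.6% of all genes. DESeq2, which passed 189 genes in all in that comparison, called Casp6. At 30 min it was -0.11, with 7 positive and 16 negative values, and in sensitized against PBS mice 0.03. At 120 against 30 min 18 were positive and 5 negative, with a median of 0.12, and at 120 against 60 min 9 were positive and 14 negative, with a median of -0.03. In edgeR 0 rose and 0 fell in these comparisons too.

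Genes that assemble chylomicrons on apoB-48, Apob among them, made a list of 11, and in edgeR 0 rose and 0 fell in each of the 6 comparisons. At 120 min against sensitized mice 7 were positive and 4 negative, with a median of 0.15; 0 had an unadjusted p under 0.05 and 0 passed with DESeq2 or limma-voom. The 4 with the smallest p were Surf4, a cargo receptor, at 0.20 ± 0.13 (adjusted p = 0.424), Sar1b, the GTPase of chylomicron export, at 0.20 ± 0.15 (adjusted p = 0.501), Apoc2, the cofactor of lipoprotein lipase, at -0.49 ± 0.38 (adjusted p = 0.547) and Pla2g12b at 0.16 ± 0.15 (adjusted p = 0.604). Against the earlier times the values were higher: the list's median was 0.49 at 120 against 30 min, with 11 of 11 positive, and 0.50 at 120 against 60 min, with 10 of 11. An unadjusted p under 0.05 was found for 6 of the 11 at 120 against 30 min, beside 17.7% of all genes, and for 3 of the 11 at 120 against 60 min, beside 19.7%. DESeq2 called Sar1b at 120 against 30 min, where it passed 838 genes in all. At 120 against 60 min, where it passed 951 genes in all, it called Cideb, Pla2g12b and Sar1b. In both comparisons limma-voom called 0 of the list. At 30 min against sensitized mice 11 of 11 were negative, with a median of -0.39, and at 60 min 9 of 11, with a median of -0.33. These comparisons share libraries. The enterocyte markers had the same signs: 8 of 8 were positive at 120 against 30 min and against 60 min, with medians of 0.45 and 0.37, and 8 of 8 were negative at 30 and 60 min against sensitized mice, with medians of -0.36 and -0.31. The crypt markers were positive for 6 of 6 at 30 and 60 min against sensitized mice, with medians of 0.60 and 0.71, and negative for 5 of 6 at 120 against 30 and 60 min, with medians of -0.20 and -0.32. The part of the cell make-up in the chylomicron values was not tested.

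Cell and RNA measures of the same libraries were as follows. Mitochondrial genes took 13.8%, 16.6% and 15.7% of the counts at 120 min, against 18.2%, 17.1% and 26.7% in sensitized mice. The summed enterocyte markers were 10131 to 14014 CPM at 120 min, against 10392 to 12354 CPM in sensitized mice, and 0 of 8 passed by edgeR, DESeq2 or limma-voom. The summed crypt markers were 801 to 1244 against 670 to 1052 CPM, and the sums of both lists overlapped. Of the 6 crypt markers 4 had positive and 2 negative log2 fold changes, with a median of 0.51. In edgeR 0 of the 6 passed, and 4 had an unadjusted p under 0.05, beside 17.7% of all genes. With DESeq2 or limma-voom 0 passed. The summed leukocyte markers were 24.2 to 67.0 CPM at 120 min, against 66.3 to 222 CPM in sensitized mice, with 8 of 9 log2 fold changes negative and a median of -1.44. The summed erythroid markers were 77.5 to 87.3 CPM at 120 min, against 125 to 179 CPM in sensitized mice with no overlap, and against 18.9 to 54.3 CPM in 30 min mice. In edgeR 0 of 9 leukocyte and 0 of 5 erythroid markers passed at 120 min against sensitized mice, 3 and 0 had an unadjusted p under 0.05, and 0 passed with DESeq2 or limma-voom. Against 60 min mice Krt20, a keratin of upper villus cells, rose by a log2 fold change of 0.68 ± 0.15 (adjusted p = 0.0404), and Lgr5, a stem cell marker, fell by 1.09 ± 0.25 on the log2 scale (adjusted p = 0.0476), both in edgeR. The part of any of these in the level of Apobec1 was not tested.

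The genes whose levels followed each member most closely were found among 8151 protein-coding genes with a mean of at least 10 CPM, by the root mean square difference of log2 CPM, each gene centred on its own mean over the 15 libraries. For Apobec1 these were Msmo1, an enzyme of cholesterol synthesis, at 0.207, Nr1h4, the bile acid receptor FXR, at 0.221, Fam84a at 0.225, and Pgap1, an enzyme that remodels glycolipid anchors, at 0.228, where the median over all genes was 0.51. Their log2 fold changes at 120 min against sensitized mice were 0.96, 0.85, 0.70 and 1.13. Because the genes were picked by closeness over these same libraries, fold changes near that of Apobec1 follow from the choice. For A1cf the nearest were Hivep1 (0.091), Ubn1 (0.093), Akap9 (0.094) and Deptor (0.098), beside a median of 0.303. For Rbm47 they were Patj (0.071), Picalm (0.088), Urgcp (0.089) and Ppip5k2 (0.09), beside a median of 0.297. The libraries and their scaling are common to all these genes, and genes that vary little lie close to one another by this measure.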

How the data were processed

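RNA of 15 libraries was sequenced with reads of 151 bases. Reads were processed with cutadapt 1.18 and Salmon 1.2.1 and the mm10 build is named, per the submitters' processing notes; no source used here names the annotation release. The deposited tables give, per the file headers, the estimated count, the TPM and the effective length of 139058 transcripts. Of these, 137943 were matched by ID, 137334 of them with the version, to GENCODE annotation of GRCm38, and summed to 52844 genes; the 1115 unmatched held 0.37% to 0.6% of the counts and were left out.

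Gene sums of estimated counts were rounded, filtered with filterByExpr, scaled by TMM and fitted in edgeR 4.0.16 (R 4.3.3) with glmQLFit (robust) and glmQLFTest over all 15 libraries with a mean for each group, which left 10 residual degrees of freedom. The threshold was a Benjamini-Hochberg adjusted p of 0.05 over 14968 genes. CPM are TMM-scaled; transcript CPM use the same factors; TPM are as deposited. Alternatives used DESeq2 1.42.0 and limma 3.58.1. The nearest genes used a prior count of 2.

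The members and lists were chosen with earlier results of these data known. Named are the members, Apob, the tested genes of the 3 short lists (1 is not reported here), the 4 genes with the smallest p at 120 min of the target and chylomicron lists, and the 4 nearest genes of each member; Celf2, Hnrnpab, Casp6, Sar1b, Cideb and Pla2g12b under DESeq2, Krt20 and Lgr5 are named as small counts, after their values were seen. Each library was taken as 1 mouse, since titles carry different numbers; if samples share an origin, p-values measure only the spread between them.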

Additional observations from a re-analysis of the deposited data

How the results depend on the processing

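No paired analysis was possible because the titles give every library its own number, so replicate numbers only name libraries. Over 243 recomputed values of the 3 members' log2 fold changes, 223 kept their direction and side of the threshold, 10 lost a call, 1 gained one and 9 changed sign.

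DESeq2 passed 6 genes in sensitized against PBS mice, 6 at 30 min, 189 at 60 min and 846 at 120 min against sensitized mice, 838 at 120 against 30 min and 951 at 120 against 60 min, where edgeR passed 0, 0, 1, 188, 151 and 168. With no filter on low counts 49 passed at 60 min against sensitized mice and 279 at 120 against 60 min. With an offset for transcript length 0, 34, 32 and 46 passed at 60 min and 120 min against sensitized mice, 120 against 30 min and 120 against 60 min. Fitted on only the 2 groups compared, 0 passed at 60 min against sensitized mice. At 120 min 4 passed against 30 min mice and 0 against 60 min mice. Apobec1, at 1.21 and 1.06, was not called in those last 2 fits. At 120 min against sensitized mice Apobec1 kept its call in all 8 other settings, the fit on 2 groups among them. Fewer libraries entered the fits on 2 groups, and the part of that was not tested. With PBS mice as control, 0 passed at 60 min, Apobec1 at 60 min was 0.11 and Rbm47 at 30 min 0.04. Causes of the differences between settings were not tested.

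Leaving out each library in turn gave 0 to 1 genes at 30 min, 0 to 385 at 60 min and 7 to 240 at 120 min against sensitized mice, 4 to 67 at 120 against 30 min and 0 to 1151 at 120 against 60 min. Apobec1 ranged over 0.89 to 1.09 at 120 min and -0.17 to 0.03 at 60 min against sensitized mice, 1.11 to 1.42 at 120 against 30 min and 0.99 to 1.16 at 120 against 60 min. Rbm47 ranged over -0.25 to 0.03 at 30 min against sensitized mice (0.03 without 30 min replicate 1) and -0.11 to 0.16 at 120 against 60 min (-0.11 without 60 min replicate 1, -0.02 without 120 min replicate 2). A1cf ranged over -0.17 to 0.03 at 120 against 30 min (0.03 without 30 min replicate 2 or 3, 0.02 without 120 min replicate 3) and -0.59 to -0.27 at 120 against 60 min. Apob ranged over -0.01 to 0.42 in sensitized against PBS mice and -0.58 to 0.21 at 120 against 60 min. Each group had 3 libraries, and each member had at least 493 estimated counts in every library. The parts of counting and of the spread between libraries in these ranges were not tested.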
